A study of Mus musculus with 2 samples.

Results

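The genes described here are 42 extracellular matrix genes, found by their symbols among the 27998 genes of the count tables, and each was detected. They comprise 10 interstitial collagens, 11 basement membrane genes, 8 elastic fibre genes, 4 proteoglycans, 6 matricellular and adhesive glycoproteins and 3 crosslinking oxidases. The study profiled single cells of whole mouse lung in 2 libraries, 1 labelled control and 1 labelled fibrosis, each from 1 male C57Bl/6J mouse aged 3 months. Per the labels, 100 µg of TiO2 or crocidolite asbestos was given into the trachea and the lungs were taken 14 days later. Both libraries carry the same protocol text, which does not tie either particle to a mouse, so the libraries go by their labels here. Asbestos fibres scar the lung, and titanium dioxide serves as a particle control in such work. The lungs were perfused and dissociated with dispase and DNase I, red cells were lysed, and cells were captured with 10x Genomics 3′ V2 chemistry. With 1 mouse per label, the particle, the mouse and the library cannot be told apart, no test between conditions was possible, and no p-value is given.

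The extracellular matrix of the lung is built from fibrils of collagens I, III and V, from elastic fibres with a microfibril coat, and from thin basement membranes of collagen IV and laminin under epithelium and endothelium. Proteoglycans space the fibrils, matricellular proteins bind cells to them, and lysyl oxidases crosslink collagen and elastin. Fibroblasts are known as the main source of the fibrils, while the alveolar basement membrane is laid down by epithelium and endothelium together.

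Promoter sequence was taken from RefSeq's windows on GRCm38.p6, which held 25 of the 42 genes in 32 windows. A pair of stretches is shown for genes picked by the values below, and a link between sequence and level was not tested. Each is written as 1 run, with the letters TATAA or TTATA in capitals where they occur. The first is the 250 bases before the start of Col3a1, the collagen gene that differed most between the fibroblasts of the libraries among the fibrillar collagens, on the plus strand at chr1:45311288-45311537. The second is the 71 bases that lie between the starts of Col4a4 and Col4a3, a head-to-head pair whose UMIs were found together in alveolar type 1 cells, on the minus strand at chr1:82586850-82586920.
Col3a1: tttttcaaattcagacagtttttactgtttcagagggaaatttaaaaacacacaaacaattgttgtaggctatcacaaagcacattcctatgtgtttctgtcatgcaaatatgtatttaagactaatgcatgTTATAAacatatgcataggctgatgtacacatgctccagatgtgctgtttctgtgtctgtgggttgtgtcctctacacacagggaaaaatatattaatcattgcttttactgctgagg
Col4a4 and Col4a3: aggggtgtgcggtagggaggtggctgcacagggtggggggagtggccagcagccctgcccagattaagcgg
The Col3a1 stretch was 35.2% G and C, against a median of 52.4% over all 32851 windows of that length, and the stretch between Col4a4 and Col4a3 was 69.0% G and C. Neither held CCAAT or GGGCGG on either strand. TATAA or its reverse TTATA occurred in 22.8% of all windows of 250 bases and in 8.14% of the 71 bases nearest the start. CCAAT occurred in 33.8% and 13.3% of those windows, and GGGCGG in 32.7% and 20.7%. A match is a description of the letters and not of a bound site.

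The tables held 8280 control and 7173 fibrosis cells, of which 8025 and 6945 were kept, with a median of 3811 and 4340 UMIs (unique molecular identifiers, each a tagged RNA molecule). The libraries shared 89 barcodes. Cells were assigned to 19 classes by marker lists that hold no matrix gene: a cell needed UMIs of at least 3 markers of a class and was set aside if it also had 3 markers of another lineage. Such cells with 2 lineages made up 21.5% of the control and 26.8% of the fibrosis cells, and held 41.5% and 48.4% of the matrix UMIs. Few stromal cells remained: 31 and 34 fibroblasts, 205 and 123 endothelial cells, 26 and 38 alveolar type 1 (AT1) cells, and 9 and 15 pericytes or smooth muscle cells. Alveolar type 2 (AT2) cells numbered 608 and 1142, alveolar macrophages 649 and 880, interstitial macrophages 156 and 371, and classical monocytes 1909 and 615. For mesothelial cells the rule on 2 lineages left 5 and 6 cells, so their values come from a gate that keeps every cell in its leading class, with 33 cells in each library. All 13 fibroblast markers had UMIs in the fibroblasts of both libraries. Levels are given as CPM, the UMIs of a gene per 1000000 UMIs of its class (or, where stated, of the whole library). All intervals are 95% intervals that cover counting error only, not differences between mice or the spread between cells of a class. Since 1 tag near the 3′ end is counted per molecule, CPM does not scale with transcript length.

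Fibroblasts held the highest CPM for most matrix genes in both libraries. Among classes with at least 20 cells, fibroblasts led for 33 of the 42 genes in the control library and for 36 in the fibrosis library. AT1 cells led for 5 and 4, endothelial cells for 2 and 1, classical monocytes for 1 in each (Vcan), and interstitial macrophages for 1 in the control library (Loxl2). If 2 markers were enough, for entry and for setting a cell aside, 10 and 12 fibroblasts were left, too few to be ranked; ranked all the same, they led for 36 and 32 genes. The leading class was the same for 39 genes. Sparc, Postn and Loxl2 were the exceptions. Sparc, a collagen-binding matricellular protein, was highest in AT1 cells in the control library, at 4271 CPM against 3039 in fibroblasts, and highest in fibroblasts in the fibrosis library, at 4829 CPM against 3178 in AT1 cells. Neither pair of intervals overlapped, but with cells of 2 lineages kept in their leading class the control levels were 3652 and 3271 CPM and their intervals did. Postn led in endothelial cells of the control library on 1 UMI and in fibroblasts of the fibrosis library on 3. Among the ranked classes, Loxl2 led in interstitial macrophages of the control library on 16 UMIs, at 28.7 CPM against 18.9 in fibroblasts with overlapping intervals. In the fibrosis library it led in fibroblasts on 12. Mesothelial cells and pericytes or smooth muscle cells were too few to be ranked. With every cell kept in its leading class, mesothelial cells were ranked and led for Loxl2 in both libraries, at 96.0 and 95.5 CPM. They led there for 4 control and 2 fibrosis genes, and fibroblasts for 30 and 34.

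**Figure D1:**
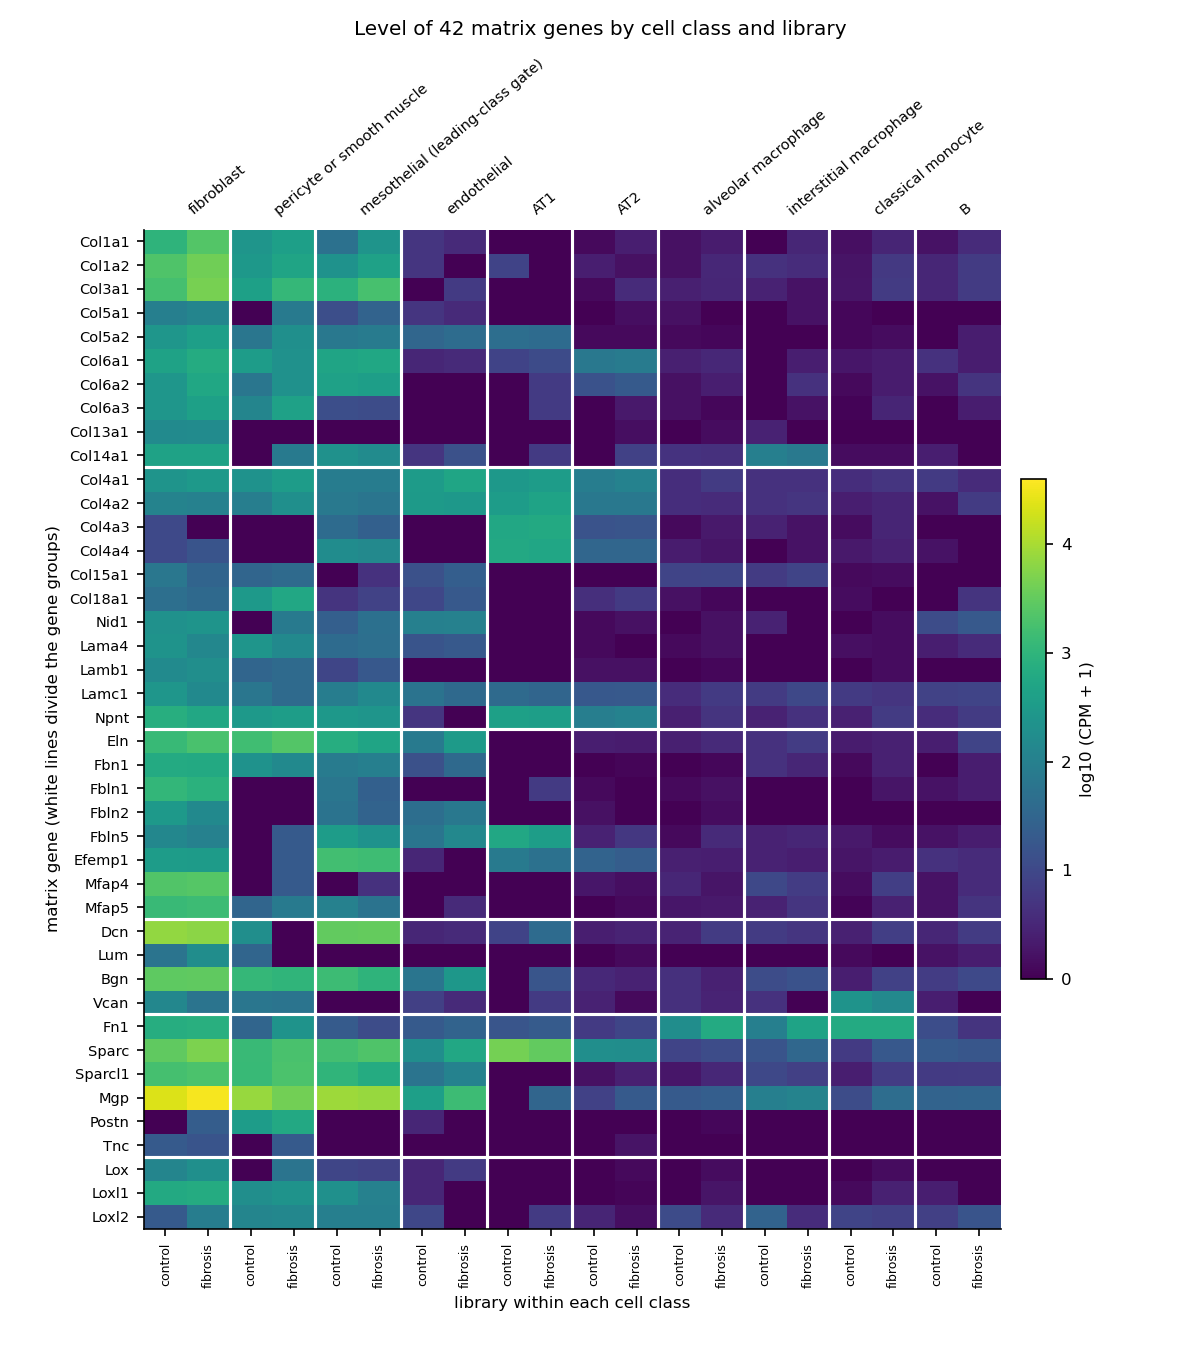
Level of each of the 42 matrix genes (rows, divided into the 6 gene groups) in 10 cell classes, control and fibrosis side by side, as log10 of CPM plus 1. The fibroblast columns are the brightest for most rows, Col4a3 and Col4a4 stand out in AT1 cells, and Fn1 stands out in macrophages and monocytes.

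B cells, which are not known to make these proteins, served as the measure of free RNA in the droplets. Their summed matrix level was 128 CPM for control and 173 CPM for fibrosis, and 13 of the 42 genes had no UMI there in each library. Fibroblasts summed to 55401 and 75814 CPM, AT1 cells to 7231 and 6119, endothelial cells to 1827 and 4022, AT2 cells to 640 and 714, and alveolar macrophages to 260 and 752. Counting a gene as above the B cell level only where the intervals did not overlap in either library, 37 of the 42 genes were above it in fibroblasts, 27 in mesothelial cells, 22 in pericytes or smooth muscle, 14 in endothelial cells and 9 each in AT1 and AT2 cells. In alveolar macrophages only Col15a1 and Fn1 were, in interstitial macrophages Col14a1, Fn1 and Mgp, and in classical monocytes Vcan and Fn1.

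Share of UMIs gave another order than level, since fibroblasts were only 0.386% and 0.490% of the cells. They nevertheless held 15.7% (interval 15.4 to 16.1) of all control matrix UMIs and 19.0% (18.7 to 19.4) of the fibrosis ones. Kept in their leading class, cells with 2 lineages raised these shares to 21.8% and 34.8%, and the gate with 2 markers lowered them to 3.82% and 4.67%. Without Mgp, Fn1 and Vcan, fibroblasts of the main gate held 18.1% (17.5 to 18.6) of control and 17.6% (17.2 to 18.0) of fibrosis matrix UMIs. These intervals overlap, so the higher fibrosis share of the main gate was not seen without these genes. With cells of 2 lineages kept in their leading class, the shares without these genes were 25.0% and 31.2%. Among the named classes, with cells of 2 lineages left out, AT2 cells were the largest single holder of 10 control and 11 fibrosis genes. Col4a1, Col4a2, Col6a1, Npnt and Sparc were among them. Each of these 5 had a higher control level in fibroblasts than in AT2 cells. Col4a4, of which AT2 cells were also the largest holder, had 1 and 2 UMIs in fibroblasts. With cells of 2 lineages kept in their leading class, AT2 cells were the largest holder of 8 and 10 genes. Efemp1, counted with AT2 cells by the main gate, then lay with mesothelial cells (52.3% and 46.3%). Classical monocytes held 23.9% of control matrix UMIs and 4.18% of fibrosis ones, where they were 23.8% and 8.86% of the cells. Alveolar macrophages held 2.27% and 6.63%. Without Mgp, Fn1 and Vcan, classical monocytes held 2.07% and 0.752%, and alveolar macrophages 1.08% and 1.15%.

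In fibroblasts the main chains of collagens I and III stood higher in the fibrosis library, and 2 of them, Col1a1 and Col3a1, were past 2-fold. Both turned lower with the median ratio of the other classes subtracted. That median rested on mesothelial cells alone for Col1a1, and on mesothelial cells and classical monocytes for Col3a1. Of the 10 interstitial collagens, 9 had a log2 ratio above 0, with a median of 0.59, against −0.04 over all 1890 genes with at least 20 UMIs over both libraries in that class. A log2 ratio is of CPM, fibrosis over control, and 1 stands for 2-fold. Of the 35 matrix genes with that many UMIs, 4 were past 2-fold higher (Col1a1, Col3a1, Col6a2 and Lum), where 4.29% of all genes were, and 2 were past 2-fold lower (Fbln2 and Vcan), where 4.34% of all genes were. The other 7 (Col4a3, Col4a4, Col15a1, Col18a1, Postn, Tnc and Loxl2) had too few UMIs in fibroblasts for a ratio.

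Col1a1 encodes the α1 chain of collagen I (ENSMUSG00000001506, chr11:94936224-94953042 on GRCm38). It had 103 UMIs in 24 of 31 control fibroblasts and 321 in 32 of 34 fibrosis fibroblasts, or 975 CPM (796 to 1183) against 2338 CPM (2089 to 2608). The log2 ratio was 1.26 (0.94 to 1.60), and 1 fibrosis cell held 18.1% of the UMIs. Col1a2, the α2 chain, stood at 2112 CPM (1843 to 2408) in control and 4050 CPM (3720 to 4401) in fibrosis fibroblasts, a log2 ratio of 0.94 (0.71 to 1.17). Both chains were found in the same cell in 24 of 31 control and 32 of 34 fibrosis fibroblasts. Col3a1, whose collagen III forms mixed fibrils with collagen I (ENSMUSG00000026043, chr1:45311538-45349706), stood at 1761 CPM (1517 to 2033) in control and 4501 CPM (4153 to 4871) in fibrosis fibroblasts, a log2 ratio of 1.35 (1.12 to 1.60). Its UMIs per cell ran from 0 to 22 with a median of 4 in the control and from 0 to 64 with a median of 12.5 in the fibrosis library. The cell values overlapped over the whole control range. Mesothelial cells of the leading-class gate, which were not ranked, had 52.0 and 244 CPM of Col1a1 and 904 and 1815 CPM of Col3a1. Pericytes or smooth muscle cells, also unranked, had a median of 1 and 2 Col3a1 UMIs per cell. In the ranked classes beside fibroblasts, which had at least 20 cells, counts were small. In the class that came second, Col1a1 reached 4.21 CPM in the control (endothelial) and 23.5 CPM in the fibrosis library (neutrophil). Col3a1 reached 3.85 CPM (ciliated) and 30.6 CPM (nonclassical monocyte). These small counts were also higher in the fibrosis library. The median log2 ratio of the other classes left them out, since a class needed 20 cells and 20 UMIs of the gene. For Col1a1 and Col1a2 it was the mesothelial ratio alone, and for Col3a1 the midpoint of the mesothelial and classical monocyte ratios. With it subtracted the fibroblast values turned to −0.93 for Col1a1 and −0.47 for Col3a1, and that of Col1a2 came to 0.01. With the gate that needs 2 markers they were 0.28 and 0.77, under 2-fold.

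The remaining interstitial collagens had wider intervals, and only those of Col6a2 and Col6a1 excluded no change. Col6a2, a chain of the beaded collagen VI filaments, had 28 UMIs in control and 76 in fibrosis fibroblasts, a log2 ratio of 1.06 (0.42 to 1.74). It was under 2-fold with 4 markers as the gate (0.76), with 2 (0.26), with cells of 2 lineages kept (0.67) and with the other classes subtracted (0.89). Col6a1 (0.56, 0.04 to 1.09) and Col6a3 (0.65, −0.03 to 1.35), which encode its partner chains, lay in the same direction. Col5a1 and Col5a2 of collagen V, which sets fibril width, had ratios of 0.39 (−0.82 to 1.68) and 0.54 (−0.14 to 1.26). Col13a1, a transmembrane collagen, and Col14a1, a fibril-associated collagen, had ratios of 0.06 (−0.91 to 1.05) and 0.00 (−0.57 to 0.58), so that these counts show no difference and leave room for about 2-fold in Col13a1.

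Among matrix genes of other roles in fibroblasts, Lum was past 2-fold higher and Fbln2 and Vcan past 2-fold lower. Mgp, the matrix Gla protein that holds back calcification, was the most abundant matrix gene, at 22668 CPM (21769 to 23594) in control and 34582 CPM (33605 to 35580) in fibrosis fibroblasts, a log2 ratio of 0.61 (0.54 to 0.68), which turned to −0.18 with the median ratio of the other classes subtracted. Sparc had a ratio of 0.67 (0.47 to 0.86) and Eln, the elastin gene, one of 0.57 (0.27 to 0.88). Dcn, the collagen-binding proteoglycan decorin, was at 7101 CPM (6602 to 7628) and 6191 CPM (5782 to 6622), a log2 ratio of −0.20 (−0.34 to −0.05). Bgn (biglycan), Mfap4, Mfap5, Fbn1 (the microfibril protein fibrillin 1), Fn1 (fibronectin) and Loxl1 (a lysyl oxidase-like enzyme of elastic fibres) had log2 ratios between −0.02 and 0.12, and each interval included 0. Fbln2, a fibulin of elastic fibres, had 33 control and 21 fibrosis UMIs, a log2 ratio of −1.03 (−1.89 to −0.20), and it was under 2-fold without the highest cell of each library (−0.82), with cells weighted equally (−0.74) and with the other classes subtracted (−0.86). Lum, the proteoglycan lumican, had 6 and 25 UMIs, but 1 fibrosis cell held 60% of the 25, and the ratio changed sign when cells with 2 lineages were kept (−0.19) and in Leiden clusters (−0.56). Vcan had 14 and 8 UMIs, a log2 ratio of −1.19 (−2.65 to 0.17). Basement membrane genes in fibroblasts had a median ratio of −0.16 over 7 genes, with Lama4 and Lamc1, laminin chains, each at −0.79 and Col4a1 at 0.37, all with intervals that included 0.

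Few fibroblasts had UMIs of both Col13a1 and Col14a1 in either library. In the control library 9 fibroblasts had UMIs of Col13a1 alone, 14 of Col14a1 alone, 1 of both and 7 of neither. In the fibrosis library the numbers were 8, 13, 2 and 11. Cells with both were thus 3.23% (0.0816 to 16.7) and 5.88% (0.720 to 19.7). How many cells with both would be found if the 2 genes were independent was not worked out. Thinned to 1000 UMIs, too few cells had either gene to compare. A split of fibroblasts by UMIs of Pi16, a gene of adventitial fibroblasts, was made after the values were seen. Of the control fibroblasts 14 had Pi16 and 17 did not, and of the fibrosis fibroblasts 18 had it and 16 did not. Col13a1 had 1 control and 0 fibrosis UMIs in cells with Pi16 and 16 and 23 in cells without it. Col14a1 had 33 and 59 UMIs in cells with Pi16 and 14 and 2 in cells without it, so that part of its control UMIs lay on the side of Col13a1. Npnt, the integrin ligand nephronectin, had 2 and 4 against 80 and 75. Dcn went the other way, at 10080 and 10362 CPM with Pi16 and 3918 and 1100 CPM without it. Col3a1 was higher in the fibrosis library on both sides of the split, with log2 ratios of 1.35 (1.06 to 1.65) with Pi16 and 1.28 (0.86 to 1.71) without it, and Col1a1 likewise with 1.32 (0.93 to 1.73) and 1.02 (0.44 to 1.63). The ratio of Eln was larger in cells without Pi16, at 1.01 (0.58 to 1.45), against 0.09 (−0.36 to 0.55) in cells with it, and that of Mgp in cells with Pi16, at 0.96 (0.86 to 1.06), against 0.17 (0.07 to 0.28). Neither pair of intervals overlaps, but the intervals count UMIs and leave out the spread between cells. Over all fibroblasts, 1 control and 1 fibrosis cell held 25.4% and 22.4% of the Eln UMIs, and 9.44% and 12.7% of the Mgp UMIs. The lack of overlap therefore does not show that the sides of the split differ.

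**Figure D2:**
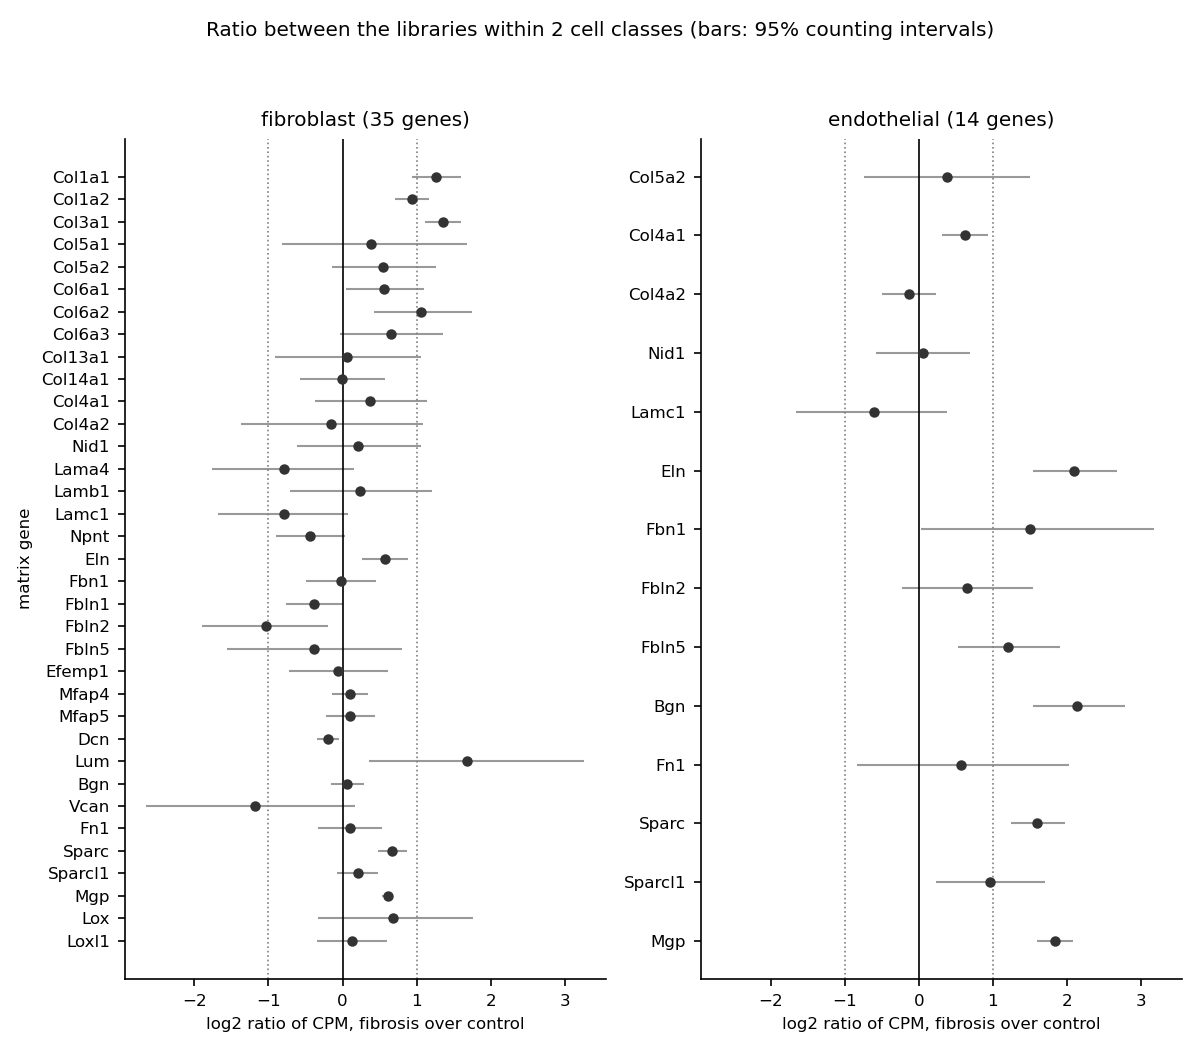
Log2 ratio of CPM, fibrosis over control, with its 95% counting interval for each matrix gene that has at least 20 UMIs over both libraries in fibroblasts (35 genes) and in endothelial cells (14 genes). Dotted lines mark 2-fold; Col1a1, Col1a2 and Col3a1 lie to the right in fibroblasts, and Eln, Bgn, Sparc and Mgp in endothelial cells.

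Endothelial cells carried the collagen IV chains of the vessel wall. Col4a1 stood at 328 CPM (279 to 384) for control and 505 CPM (437 to 580) for fibrosis, a log2 ratio of 0.62 (0.31 to 0.93), and Col4a2, its partner chain, at 314 CPM (265 to 368) and 287 CPM (236 to 345), a ratio of −0.13 (−0.50 to 0.23). The intervals of these ratios do not overlap, although the chains are known to assemble in 1 trimer. Of the 14 matrix genes with enough UMIs, 6 were past 2-fold higher, where 3.67% of all endothelial genes were, and none was past 2-fold lower, where 4.78% were. They were the elastic fibre genes Eln (75.8 against 323 CPM, log2 ratio 2.09, 1.55 to 2.67), Fbn1 (12.6 against 35.9 CPM, 1.51, 0.04 to 3.17) and Fbln5 (61.0 against 141 CPM, 1.21, 0.53 to 1.91), with Bgn, Sparc and Mgp. Bgn stood at 61.0 CPM (40.9 to 87.7) and 269 CPM (220 to 326), Sparc at 189 CPM (152 to 233) and 574 CPM (501 to 654), and Mgp at 394 CPM (339 to 454) and 1401 CPM (1286 to 1524). None of these pairs of intervals overlapped. Fbn1 and Fbln5 were under 2-fold with cells of 2 lineages kept in their leading class (0.73 and 0.41) and in Leiden clusters (0.80 and 0.60), and Fbln5 also with 2 markers (0.50) and with cells weighted equally (0.72). Fibroblast markers summed to 48.4 and 41.0 CPM over the endothelial cells of the 2 libraries, 7 of 13 at 0 in each, and pericyte or smooth muscle markers to 21.0 and 99.9 CPM, 7 of 11 at 0 in each. The part of such cells in these ratios was not tested.

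The share of endothelial cells with a UMI of Vwf, the von Willebrand factor of larger vessels, also differed between the libraries. Such cells were 47 of 205 (22.9%) in the control and 56 of 123 (45.5%) in the fibrosis library. These shares are not corrected for depth, and the median endothelial cell had 1934 control and 2637 fibrosis UMIs. The split by Vwf was also made after the values were seen. Mgp, Eln, Bgn and Fbln5 lay almost wholly in cells with Vwf: for Mgp 168 of 187 UMIs lay there in control and 543 of 547 in fibrosis, and Bgn 29 of 29 and 103 of 105. Within cells with Vwf the log2 ratios were 1.10 (0.85 to 1.36) for Mgp, 1.29 (0.72 to 1.91) for Eln, 1.24 (0.63 to 1.89) for Bgn and 0.44 (−0.25 to 1.16) for Fbln5, each smaller than in the class as a whole. In cells without Vwf, Mgp had 19 control and 4 fibrosis UMIs, a ratio of −1.34 (−3.35 to 0.25). Sparc was the exception: its ratio was 2.08 (1.58 to 2.60) in cells without Vwf and 0.88 (0.36 to 1.42) in cells with it. Col4a1 was lower with Vwf than without it in both libraries, at 183 against 390 CPM and 342 against 700 CPM. A single fibrosis cell with 218 UMIs held 39.9% of the endothelial Mgp; without the highest cell of each library the log2 ratio was 1.37. With cells of 2 lineages kept in their leading class it was 0.68, in Leiden clusters 0.97 and with 2 markers as the gate 0.72, so it was not past 2-fold there.

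Mesothelial cells, the sheet that covers the lung surface, were rich in Mgp, Dcn, Sparc and Efemp1 in both libraries. Under the leading-class gate Efemp1 (fibulin 3) stood at 1624 CPM (1470 to 1790) and 1489 CPM (1350 to 1638), and mesothelial cells held 52.3% and 46.3% of all its UMIs. In fibroblasts of the main gate Efemp1 was at 341 and 328 CPM. Dcn was found in 33 of 33 cells of each library, at 3097 CPM (2882 to 3323) and 3314 CPM (3106 to 3534). Of the 28 genes with enough UMIs, 2 were past 2-fold higher, where 3.05% of all genes were, and 1 was past 2-fold lower, where 4.26% were. Col3a1 had 226 and 513 UMIs, or 904 CPM (790 to 1030) and 1815 CPM (1661 to 1979), a log2 ratio of 1.01 (0.78 to 1.24). Col1a1 had 13 and 69 UMIs, a ratio of 2.23 (1.36 to 3.21), and Fbln1 had 16 and 7, a ratio of −1.37 (−2.89 to −0.01). With the median ratio of other classes subtracted, Col3a1 turned to −0.99, and Col1a1 (0.93) and Fbln1 (−0.94) were under 2-fold. For Col1a1 and Fbln1 that median was the fibroblast ratio alone, and for Col3a1 the midpoint of the fibroblast and classical monocyte ratios. These values are therefore not independent of those given for fibroblasts. Col3a1 was also under 2-fold with cells weighted equally (0.37), without the highest cell of each library (0.59), in Leiden clusters (0.95) and with cells over the mitochondrial limit kept (0.98). Fibroblast markers summed to 4089 and 3672 CPM in these cells, 5 and 6 of 13 at 0, against 12262 and 11072 CPM for mesothelial markers, and Gpc3, a fibroblast marker, was among their 10 leading genes. How far cells with both programmes set these values was not tested.

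Pericytes or smooth muscle cells were too few for ratios of most genes. Postn, the matricellular protein periostin, had 11 of 18 UMIs in the 9 control cells of this class and 31 of 48 in the 15 fibrosis cells, or 343 CPM (171 to 615) and 599 CPM (407 to 850). In fibroblasts it had 0 and 3 UMIs. Eln stood at 1530 CPM (1132 to 2023) and 2319 CPM (1923 to 2773), against 1269 and 1886 CPM in fibroblasts. Col18a1, a basement membrane collagen, stood at 312 CPM (150 to 574) and 580 CPM (391 to 828), above the 47.3 and 36.4 CPM of fibroblasts, and its intervals did not overlap with theirs in either library.

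AT1 cells carried the alveolar pair of collagen IV chains. Col4a3 (ENSMUSG00000079465, chr1:82586921-82722059, plus strand) and Col4a4 (ENSMUSG00000067158, chr1:82448423-82586849, minus strand) start on either side of the 71 bases written above. In AT1 cells Col4a3 stood at 565 CPM (444 to 708) for control and 617 CPM (513 to 737) for fibrosis, and Col4a4 at 588 CPM (464 to 733) and 522 CPM (427 to 633). The class that came second was AT2 cells for both genes, at 14.3 and 15.2 CPM for Col4a3 and 32.6 and 31.4 CPM for Col4a4. Mesothelial cells of the leading-class gate, which were not ranked, had 172 and 145 CPM of Col4a4. Both were found in the same cell in 21 of 26 control AT1 cells and 26 of 38 fibrosis AT1 cells. Thinned to 1000 UMIs, both were found in 8 of 26 and 11 of 38. Of the 8 matrix genes with enough UMIs, none was past 2-fold in either direction, where 5.62% of all AT1 genes were higher and 4.82% lower. A pair lay lower with intervals that excluded no change: Sparc, at 4271 CPM (3927 to 4638) and 3178 CPM (2935 to 3435), a log2 ratio of −0.43 (−0.59 to −0.26), and Fbln5, the elastic fibre organiser, at 572 CPM (451 to 717) and 366 CPM (287 to 461), a ratio of −0.64 (−1.13 to −0.16). In Leiden clusters, which held 88.5% of the control but 68.4% of the fibrosis AT1 cells in the clusters of that name, both turned to positive values (0.16 and 0.16), and with 2 markers as the gate they were −0.05 and 0.12. Col4a2 stood at 347 CPM (254 to 462) and 457 CPM (368 to 561). AT2 markers summed to 814 CPM in control and 1752 CPM in fibrosis AT1 cells, with 1 and 0 of 9 at 0, club markers to 3028 and 1235 CPM, with 4 and 2 of 8 at 0, and classical monocyte markers to 731 and 1692 CPM, with 4 and 3 of 9 at 0. Their part in these values was not tested.

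In AT2 cells, the surfactant-making epithelium, the leading matrix genes were nearly level between the libraries. Sparc stood at 188 CPM (173 to 203) and 183 CPM (172 to 193), a log2 ratio of −0.04 (−0.18 to 0.10), and Col4a2 at 69.0 and 68.7 CPM, a ratio of −0.01 (−0.24 to 0.23). Npnt had 312 and 701 UMIs, or 90.9 CPM (81.1 to 102) and 108 CPM (101 to 117), Col4a1 stood at 86.5 CPM (76.9 to 96.9) and 107 CPM (99.5 to 116), and Col6a1 at 68.2 CPM (59.7 to 77.5) and 80.3 CPM (73.5 to 87.5). These 3 ratios, 0.25, 0.31 and 0.24, were small, and with the median ratio of the other classes subtracted they turned to −1.005, −0.05 and −0.15. AT2 cells were 7.58% of the control and 16.4% of the fibrosis cells, and their share of Npnt UMIs went from 29.7% to 40.7% and of Col4a1 UMIs from 25.0% to 31.6%. Of the 15 matrix genes with enough UMIs, 3 were past 2-fold higher, where 3.63% of all AT2 genes were, and none was lower, where 1.13% were. Col14a1 had no UMI in 608 control cells and 44 UMIs in 21 of 1142 fibrosis cells, 6.81 CPM (4.95 to 9.14); against the 3 counts that a count of 0 allows in the control class it was at least 7.79-fold higher. In B cells of the fibrosis library Col14a1 had 0 UMIs. Fibroblast markers summed to 479 and 335 CPM in AT2 cells, 5 and 2 of 13 at 0, and interstitial macrophage markers to 25.0 and 53.5 CPM, 2 and 1 of 11 at 0. The part of such cells in this was not tested. Fbln5 had 6 and 30 UMIs, a log2 ratio of 1.41 (0.12 to 2.96). Mgp had 23 and 123 UMIs, or 6.70 and 19.0 CPM, against 27.7 and 29.0 CPM in B cells. Its ratio was under 2-fold with cells of 2 lineages kept (0.82) and with the other classes subtracted (0.87).

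Fn1, which encodes fibronectin (ENSMUSG00000026193, chr1:71585520-71653200, minus strand), was the matrix gene of the macrophage and monocyte classes. In classical monocytes it stood at 638 CPM (622 to 654) for control and 637 CPM (605 to 669) for fibrosis, a log2 ratio of 0.00 (−0.08 to 0.08), while 414 of 1909 control and 232 of 615 fibrosis cells had no UMI of it. The class itself differed: 79.2% of its control and 59.3% of its fibrosis cells lay in Leiden clusters named as classical monocytes. In those clusters the ratio was 0.33, and with the median ratio of the other classes subtracted it was −1.97. In alveolar macrophages it had 571 UMIs in 649 control cells and 3145 in 880 fibrosis cells, or 175 CPM (161 to 190) and 652 CPM (630 to 675), a log2 ratio of 1.89 (1.76 to 2.03). The ratio lay between 1.82 and 1.94 under the other gates, clusters, cell filters and weights, and came to 0.52, under 2-fold, with the median ratio of the other classes subtracted. Fibroblasts stood at 748 CPM (592 to 932) and 801 CPM (658 to 966), and in the fibrosis library alveolar macrophages were the class that came second, with overlapping intervals. The median alveolar macrophage had 0 Fn1 UMIs for control and 2 for fibrosis, with highest cells of 15 and 34. Cells with 5 or more were 23 of 649 (3.54%) and 248 of 880 (28.2%). Cells with at least 1 were 37.8% and 70.9%, and 15.3% (12.6 to 18.3) and 39.0% (35.7 to 42.3) after thinning to 1000 UMIs. In B cells, with medians of 1791 and 2488.5 UMIs against 4837 and 5036 in alveolar macrophages, 2.34% and 1.06% of cells had a UMI. In alveolar macrophages classical monocyte markers summed to 765 and 590 CPM, with none of 9 at 0, interstitial macrophage markers to 75.9 and 138 CPM, with 2 and 0 of 11 at 0, and dendritic cell markers to 410 and 541 CPM, with 1 and 0 of 11 at 0. The part of such cells in the Fn1 values was not tested.

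Fn1 in alveolar macrophages was higher on both sides of a split by Mmp12, a macrophage elastase that 11 of 649 control and 339 of 880 fibrosis cells carried. Cells without Mmp12 stood at 171 and 419 CPM, a log2 ratio of 1.29 (1.14 to 1.44), and cells with it at 407 and 967 CPM, a ratio of 1.25 (0.66 to 1.91). Interstitial macrophages had 54 Fn1 UMIs in 13 of 156 control cells and 668 in 85 of 371 fibrosis cells, or 97.0 CPM (72.8 to 127) and 469 CPM (434 to 506), a log2 ratio of 2.27 (1.87 to 2.70). A single cell held 44.4% of the control UMIs; without the highest cell of each library the ratio was 2.94. In Leiden clusters named from the same markers it was 0.99, and with the median ratio of the other classes subtracted 0.96. Alveolar macrophage markers summed to 871 and 1243 CPM in interstitial macrophages and classical monocyte markers to 1465 and 895 CPM, with none at 0; their part in the Fn1 values was not tested.

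**Figure D3:**
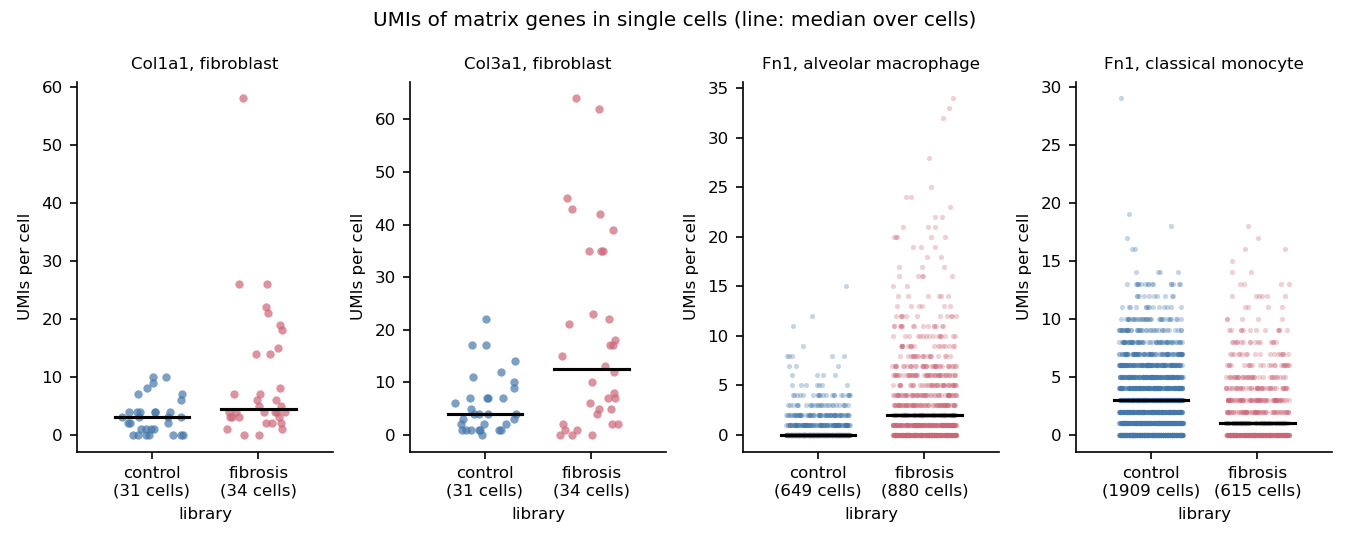
UMIs per cell of Col1a1 and Col3a1 in fibroblasts and of Fn1 in alveolar macrophages and classical monocytes, 1 point per cell, black lines at the median. The fibrosis points reach higher for both collagens and for Fn1 in alveolar macrophages, with overlap at the low end, while the medians of Fn1 in classical monocytes are 3 for control and 1 for fibrosis.

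The holders of Fn1 changed places between the libraries. Classical monocytes held 75.5% of control Fn1 UMIs and 20.9% of fibrosis ones, alveolar macrophages 6.98% and 41.8%, and interstitial macrophages 0.660% and 8.87%. Fibroblasts held 0.966% and 1.46% in spite of their high level. Over the whole library Fn1 stood at 229 CPM with the control label and 202 CPM with the fibrosis label, a log2 ratio of −0.18. Vcan, the large proteoglycan versican, kept 1 main holder: classical monocytes held 85.1% and 77.6% of its UMIs. Its level there was 228 CPM (219 to 238) and 147 CPM (132 to 163), a log2 ratio of −0.63 (−0.80 to −0.47). In Leiden clusters, which divide this class as given for Fn1, the ratio was −0.33, and with the median ratio of the other classes subtracted it turned to 0.37. The share of cells with a UMI was 53.4% and 31.2%, or 17.9% (16.2 to 19.7) and 12.7% (10.2 to 15.6) after thinning.

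**Figure D4:**
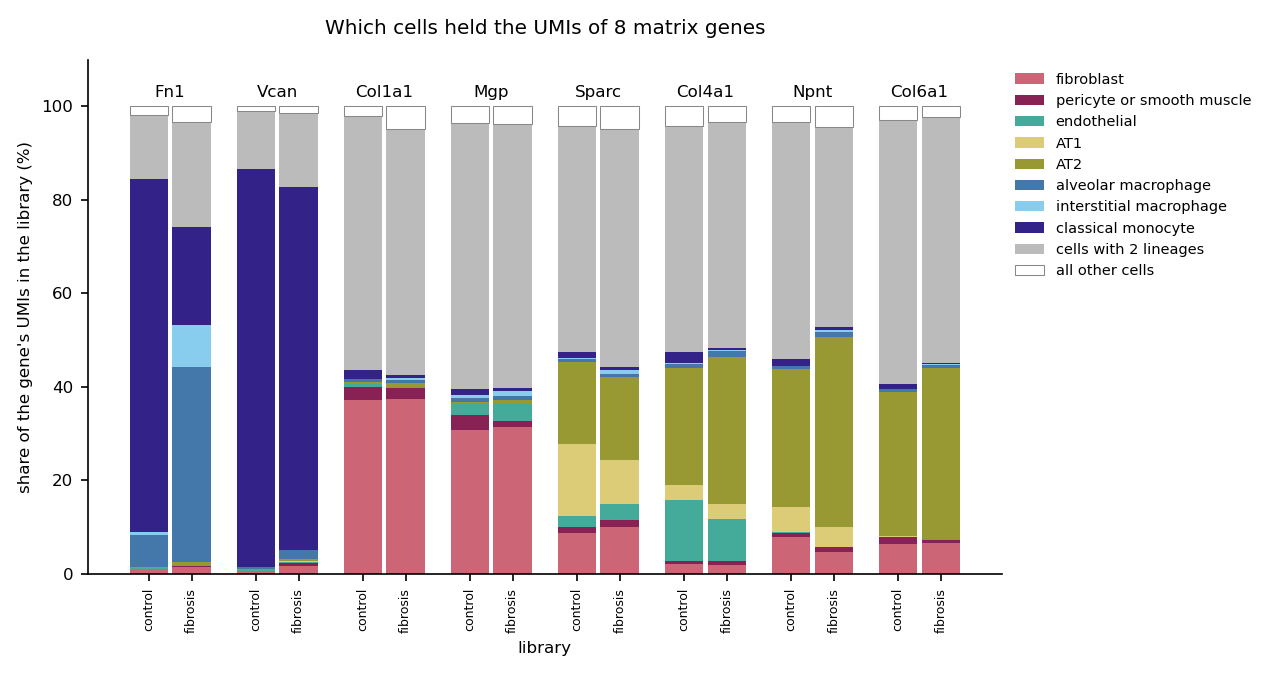
Share of each gene's UMIs held by each cell class in the control and fibrosis libraries for 8 matrix genes, in percent of the gene's UMIs in all kept cells. Fn1 moves from classical monocytes (75.5%) to alveolar macrophages (41.8%), and Vcan stays with classical monocytes. Col1a1, Mgp and Sparc keep a similar share in their leading named class. The AT2 share is larger in the fibrosis library for Npnt (29.7% to 40.7%), Col4a1 (25.0% to 31.6%) and Col6a1 (30.7% to 36.5%). All but Fn1 and Vcan have a large share in cells that carry markers of 2 lineages.

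Other matrix genes of the macrophage classes were sparse. Of 12 with enough UMIs in alveolar macrophages, 3 were past 2-fold higher (Npnt, Dcn and Fn1), where 3.52% of all genes were, and 1 lower (Loxl2), where 1.75% were. Dcn, at 1.84 and 5.18 CPM, and Npnt, at 1.54 and 3.94 CPM, were near their B cell levels of 2.13 and 5.27 CPM and of 2.84 and 5.27 CPM, and Dcn was under 2-fold in Leiden clusters (0.93). Loxl2, an oxidase that crosslinks collagen IV, had 34 and 12 UMIs in alveolar macrophages, a log2 ratio of −2.07 (−3.15 to −1.08), and 16 and 4 in interstitial macrophages, where 1 cell held 62.5% of the control UMIs. Its B cell level was 6.39 and 14.5 CPM, against 10.4 and 2.49 CPM in alveolar macrophages. Col15a1, a collagen at the edge of basement membranes, was steady in alveolar macrophages at 7.68 CPM (4.97 to 11.3) and 8.09 CPM (5.75 to 11.1), and these cells held 40.3% and 31.0% of its UMIs. Sparc stood at 7.68 and 10.8 CPM and Mgp at 19.0 and 22.6 CPM there, below their B cell levels.

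Interstitial macrophages carried Col14a1 above background, at 95.2 CPM (71.3 to 124) in 46 of 156 control cells and 70.1 CPM (57.1 to 85.3) in 73 of 371 fibrosis cells. Their share of all Col14a1 UMIs was 25.0% and 21.8%, above the 22.2% and 13.3% of fibroblasts, although the fibroblast level was 445 and 444 CPM. Fibroblast markers summed to 136 and 82.8 CPM in interstitial macrophages, 4 and 2 of 13 at 0, and their part in this was not tested. Mgp there stood at 95.2 CPM (71.3 to 124) and 112 CPM (94.9 to 130). Of 6 genes with enough UMIs, 2 were past 2-fold higher (Fn1 and Sparc), where 6.03% of all genes were, and 1 lower (Loxl2), where 3.66% were. Sparc had 8 and 48 UMIs, a log2 ratio of 1.23 (0.14 to 2.52), and it was under 2-fold with 2 markers as the gate (0.95) and with the other classes subtracted (0.66).

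In classical monocytes 7 of 12 genes with enough UMIs were past 2-fold higher in the fibrosis library, where 5.39% of all genes were, and none lower, where 2.28% were. The 7 (Col3a1, Npnt, Dcn, Bgn, Sparc, Sparcl1 and Mgp) were at low levels, of which Mgp was the highest at 10.9 and 43.2 CPM, and none was above the B cell level in both libraries. Npnt and Sparc were under 2-fold with 2 markers as the gate (0.64 and 0.62), and Npnt also with cells of 2 lineages kept (0.41). Single cells carried much of them: 1 fibrosis monocyte held 29.0% of the Mgp UMIs, and 1 held 53.8% of the Col3a1 UMIs.

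Over the whole libraries 37 of the 42 genes had a higher CPM with the fibrosis label, with a median log2 ratio of 0.70. Of all 15322 genes with at least 20 UMIs, 62.0% were higher, with a median of 0.12. Of the 42, 10 were past 2-fold higher, where 5.98% of all genes were, and 1 was lower, where 3.12% were. That gene was Vcan, at −2.53. Given the control library's class shares of cells, by arithmetic, with cells of 2 lineages taken by their leading class, 36 of the 42 were higher with a median of 0.50, and 7 were past 2-fold higher. That arithmetic was done for the 42 genes only, so these counts have no share over all genes to be read against. Col3a1 went from 1.66 to 1.63 and Col1a1 from 1.57 to 1.52. Vcan went from −2.53 to −1.05, Fn1 from −0.18 to 0.18, Npnt from 0.65 to 0.14, and Col4a3 from 0.60 to 0.09. A pair of rare matricellular genes was higher too: Tnc (tenascin C) had 3 and 25 UMIs, a log2 ratio of 3.00 (1.29 to 5.37), and Postn had 18 and 48, a ratio of 1.36 (0.55 to 2.22). Of the 25 fibrosis UMIs of Tnc, 9 lay in cells with 2 lineages, 5 in AT2 cells and 2 in fibroblasts. Loxl2 was lower, with 282 and 156 UMIs and a ratio of −0.91, while Lox, the founding lysyl oxidase, had 28 and 72 UMIs. In bulk terms, a whole-library level cannot tell fewer cells of a class from less RNA per cell.

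**Figure D5:**
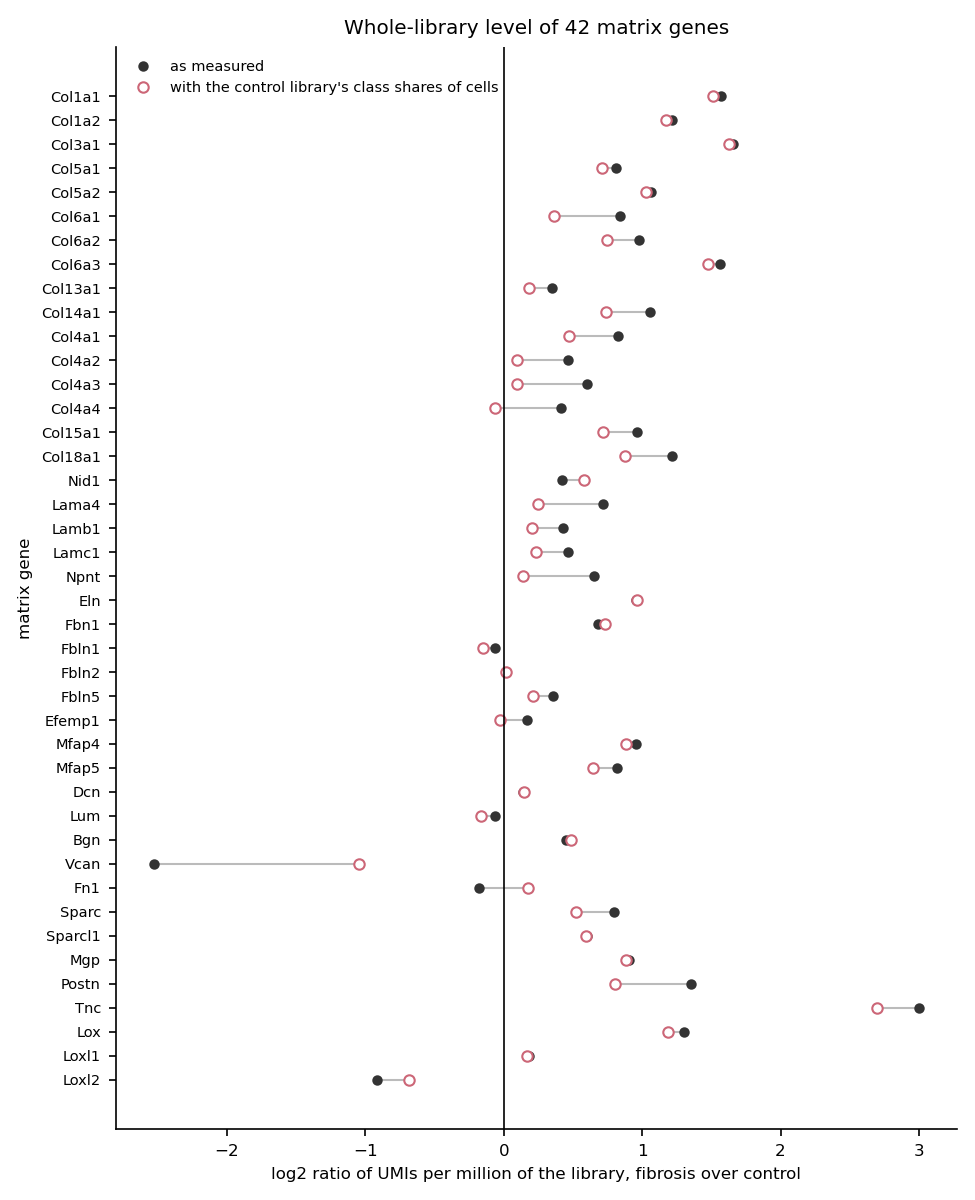
Log2 ratio of CPM over the whole library, fibrosis over control, for the 42 matrix genes as measured (filled) and after giving the fibrosis library the control library's class shares of cells (open). The 2 marks lie close together for Col1a1 and Col3a1 and far apart for Vcan (−2.53 and −1.05).

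Another 58 genes of matrix assembly were listed beside the 42. In fibroblasts 22 of them had enough UMIs, of which 1 was past 2-fold higher, where 4.29% of all genes were, and none lower. That gene was Thbs1, the matricellular protein thrombospondin 1, with 4 and 27 UMIs, or 37.9 and 197 CPM, a log2 ratio of 2.38 (0.86 to 4.35). In endothelial cells 1 of 19 was past 2-fold higher, where 3.67% of all genes were, again Thbs1, with 1 and 19 UMIs. In AT1 cells 1 of 17 was, where 5.62% of all genes were: P4hb, the β subunit of the enzyme that hydroxylates collagen prolines, at 113 and 271 CPM, a ratio of 1.26 (0.42 to 2.19). These shares lie near those over all genes. In AT2 cells 2 of 27 were, where 3.63% of all genes were, among them Pcolce, which aids the cleavage of procollagen, with 17 and 66 UMIs, and in alveolar macrophages 1 of 13, where 3.52% were, Ltbp3, which binds latent TGF-β, with 4 and 19 UMIs. In interstitial macrophages 1 of 10 was past 2-fold higher, where 6.03% were, and 1 lower, where 3.66% were, the latter Cyr61, a matricellular gene, with 18 and 7 UMIs. In classical monocytes 3 of 15 were past 2-fold higher (Serpinh1, Pcolce2 and Lamb3), where 5.39% were. In mesothelial cells none of 20 was past 2-fold in either direction. The 12 listed genes of collagen folding and processing had a median log2 ratio of 0.36 in fibroblasts over the 5 genes with enough UMIs.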

How the data were processed

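The values used are UMI counts per gene and cell, deposited by the authors as 1 matrix per library; per the submitters' processing notes they were made with Cell Ranger 1.3 on mm10. Each library is 1 mouse, so no test between the labels was made. Cells with over 10% mitochondrial UMIs or under 200 genes were left out. A cell joined the class with the largest share of detected markers (19 lists, 183 of 186 markers in the files) if at least 3 were detected, and was set aside with 3 markers of another lineage. The reported values used no doublet caller beside this rule. In an alternative, the 515 control and 386 fibrosis cells with the highest Scrublet scores were left out. Counts were summed per class; intervals are exact (Poisson for CPM, Clopper-Pearson for shares, conditional binomial for log2 ratios) at 95%. A gene counted as past 2-fold from 20 UMIs over both libraries, with a pseudocount of 0.5. The members, marker lists and other matrix lists (60 genes, 58 in the files) were chosen with earlier results of these data known. Genes named are the 5 highest per class, those past 2-fold with an interval that excludes no change and those whose leading class differed, with up to 5 other matrix genes per class. Splits by Vwf, Pi16 and Mmp12 were chosen after seeing the data. Thinning drew 1000 UMIs per cell, below the shallowest cell (1460 UMIs), so no cell was left out by it. On simulated data with 4-fold changes, 98.7% of 155 changed genes were past 2-fold in fibroblasts, with 4.60% of unchanged ones, over 1915 genes, and 100% of 188 in alveolar macrophages, with 1.16%, over 10123 genes. The shares of unchanged genes count both directions together. The simulated counts had counting error only and no spread between cells, so real error can be larger. Alternatives covered the gate, clustering, doublets, thinning, weighting, the median ratio of the other classes and the count minimum. That median used only classes with at least 20 cells in each library and 20 UMIs of the gene over both. For some genes it rested on a single class. Gene positions are from GENCODE M21 on GRCm38. Tools were numpy 2.4.6, scipy 1.17.1, pandas 2.3.3, scanpy 1.11.5, python-igraph 0.11.9 and matplotlib 3.10.9.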

Additional observations from a re-analysis of the deposited data

How the results depend on the processing

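No paired analysis was possible because each label has 1 library, and for the same reason no replicate could be left out. The values that follow are given with the reported one in parentheses, and the cause of each shift was not tested. The share of all genes past 2-fold was not worked out under each alternative. Counts of members past 2-fold below therefore show shifts between settings only, and are not results about the members. With 2 markers as the gate, 10 and 12 fibroblasts were left, under the 20 cells a ranked class needs, so they were highest for 0 and 0 of the 42 genes (33 in the control, 36 in the fibrosis library; ranked whatever the size, 36 and 32), and they held 3.82% and 4.67% of matrix UMIs (15.7% and 19.0%); members past 2-fold higher were 0 in fibroblasts (4), 0 in AT2 cells (3) and 1 in interstitial macrophages (2), those lower 1 in fibroblasts (2) and 0 in interstitial macrophages (1), and 0% of control fibroblasts had both Col13a1 and Col14a1 (3.23%). With 4 markers the shares were 20.8% and 25.5%, members higher 5 in AT2 cells and 5 in alveolar macrophages (3), lower 3 in alveolar macrophages (1) and 1 in fibroblasts. With cells of 2 lineages kept in their leading class the shares were 21.8% and 34.8%, members higher 6 in alveolar macrophages, lower 5 in AT2 cells (0) and 3 in alveolar macrophages, and the log2 ratio of Lum was −0.19 (1.59 with the pseudocount). In Leiden clusters made without matrix genes the shares were 29.7% and 43.5%, members higher 1 in interstitial macrophages, lower 2 in AT2 cells, 2 in alveolar macrophages, 1 in endothelial cells (0) and 0 in interstitial macrophages, and the ratio of Lum was −0.56. With the highest doublet scores left out the shares were 16.9% and 20.8%. With cells weighted equally 0 members were lower in fibroblasts, and with the highest cell left out 1 was. With the median ratio of the other classes subtracted, members higher were 1 in fibroblasts and 0 in interstitial macrophages, lower 6 in fibroblasts, 2 in AT2 cells and 1 in endothelial cells, and the ratios of Col1a1 in fibroblasts (−0.93), Col3a1 in fibroblasts (−0.47) and Col3a1 in mesothelial cells (−0.99) changed sign. Thinned to 1000 UMIs, 0% of fibroblasts in either library had both Col13a1 and Col14a1 (5.88% in the fibrosis library). With a minimum of 10 UMIs members higher were 6 in AT2 cells and 6 in alveolar macrophages, lower 1 and 3; with 50 they were 1 and 1 higher, and 0 lower in alveolar macrophages, 1 in fibroblasts and 0 in interstitial macrophages. In endothelial cells with no UMI of Vwf, a split chosen after seeing the data, the ratio of Mgp was −1.34 (1.83). Keeping cells above the mitochondrial limit moved none of 68 values compared. Depth limits the ratios: 7 of the 42 genes had too few UMIs for one in fibroblasts.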
